A study of Mus musculus with 6 samples.

Results

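The mitochondrial ribosomal protein genes were followed by RNA sequencing of mouse quadriceps at postnatal day 10. There were 3 libraries from control pups and 3 from pups in which Pcyt2 is targeted by a Cre driven from Myf5. Members were chosen by symbol alone. They are the protein-coding rows named Mrpl or Mrps, a number and at most 1 final letter, with at least 10 counts summed over the 6 libraries. Of 54532 genes in the count table, 78 had such a symbol and 77 passed the minimum, and all 77 also passed the low-count filter of the test. The gene left out was Mrpl53, with 3 summed counts, and the member with the fewest was Mrpl23, with 237. Controls were Pcyt2 flox/flox and the other group Myf5Cre-Pcyt2 flox/flox, so both carried the floxed alleles, and the labels do not say that controls carried a Cre. All mice ate chow, and whole quadriceps was taken, so the RNA comes from every cell type of the muscle. Pcyt2 encodes the rate-limiting enzyme of phosphatidylethanolamine synthesis from ethanolamine, and Myf5 is active in muscle precursors, from which fibres and satellite cells descend.

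Mitochondria carry their own ribosome, which translates only the few mRNAs that mitochondrial DNA encodes, all of them for subunits of oxidative phosphorylation. Its 2 rRNAs come from mitochondrial DNA, but every one of its proteins is encoded in the nucleus, made in the cytosol and imported. Some of these proteins descend from bacterial ribosomal proteins and others were added during the evolution of mitochondria. In muscle, whose fibres are rich in mitochondria, loss of single members of the family is known to impair respiration.

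The members lie on 17 chromosomes, and the promoter letters of 5 of them are shown for the results they carry. Mrpl34 and Mrpl22 had the largest falls, Mrps12 had the largest fall in the small subunit, Mrpl12 had the highest level per length, and Mrpl23 was the only member that rose. Each run is the part of the 250 bases before the RefSeq start site (build GRCm38.p6) that no annotated exon covers, read 5′ to 3′ on the gene's strand. They are chr8:71464676-71464925 (plus strand) for Mrpl34, chr11:58171414-58171660 (plus) for Mrpl22, chr7:28741822-28741991 (minus) for Mrps12, chr11:120484387-120484612 (plus) for Mrpl12 and chr7:142532831-142533011 (plus) for Mrpl23. Capitals mark CCGGAAG, the core of the ETS family site, in Mrpl34 and Mrpl22, GGGCGG, the core of the SP1 site, in Mrps12 and Mrpl23, and the site of the respiratory factor NRF1 (GCGCA and GCGC with any 1 base between them) in Mrpl12. Each was searched on both strands.
Mrpl34: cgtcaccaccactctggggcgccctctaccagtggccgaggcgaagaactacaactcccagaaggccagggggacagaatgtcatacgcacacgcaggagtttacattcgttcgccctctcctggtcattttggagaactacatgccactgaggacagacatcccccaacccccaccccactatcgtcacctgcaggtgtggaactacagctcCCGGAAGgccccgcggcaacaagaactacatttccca
Mrpl22: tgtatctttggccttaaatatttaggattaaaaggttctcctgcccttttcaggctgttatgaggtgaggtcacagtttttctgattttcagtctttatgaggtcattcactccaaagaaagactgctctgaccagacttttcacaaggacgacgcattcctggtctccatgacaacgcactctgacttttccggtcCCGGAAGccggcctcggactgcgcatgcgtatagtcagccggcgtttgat
Mrps12: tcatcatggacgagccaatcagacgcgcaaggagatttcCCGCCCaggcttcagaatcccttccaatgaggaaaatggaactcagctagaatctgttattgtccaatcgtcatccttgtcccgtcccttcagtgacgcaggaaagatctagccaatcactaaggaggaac
Mrpl12: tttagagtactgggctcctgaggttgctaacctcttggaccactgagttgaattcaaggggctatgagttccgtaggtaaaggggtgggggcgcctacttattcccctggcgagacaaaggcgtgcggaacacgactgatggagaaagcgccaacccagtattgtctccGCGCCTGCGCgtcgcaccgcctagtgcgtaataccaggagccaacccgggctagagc
Mrpl23: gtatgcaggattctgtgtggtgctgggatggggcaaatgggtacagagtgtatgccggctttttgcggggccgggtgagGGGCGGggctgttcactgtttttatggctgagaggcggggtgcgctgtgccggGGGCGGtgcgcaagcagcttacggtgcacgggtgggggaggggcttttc

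Promoter windows, 250 bases before to 50 after the start, were found in the RefSeq table for 68 of the 77 members. No window was matched for Mrps35, Mrpl54, Mrpl13, Mrpl4, Mrpl38, Mrps34, Mrps28, Mrpl15 and Mrpl19. The NRF1 letters were present in 13 members (19.1%) and in 6.85% of 16522 protein-coding windows of the same length. CCGGAAG was present in 24 members (35.3%) and in 12.3% of the windows. AAGATGGC, the YY1 core, was present in 12 members (17.6%) and in 3.29%. GGGCGG was found in 34 of 68 members and 48.0% of windows, and CCAAT in 26 members (38.2%) and 38.7%, so these letters were about as frequent as elsewhere. TATAAA was found in 5.9% of members and 12.9% of windows. TCAAGGTCA, bound by oestrogen-related receptors, was in 0 members and in 0.339% of windows. The motifs are short and can overlap each other, as GGGCGG and CCGGAAG do in Mrpl17. The window of Mrps12 also holds CCGGAAG and AAGATGGC, outside the run printed above. Median GC content was 58.2% in the members' windows and 57.0% in all protein-coding windows. Among the 28 members with a window that fell, 6 held the NRF1 letters, 9 CCGGAAG, 7 AAGATGGC and 15 GGGCGG. Among the 40 that did not fall, the counts were 7, 15, 5 and 19.

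Mitochondrial ribosomal protein genes were mostly lower in Myf5Cre-Pcyt2 muscle, by small amounts. By edgeR's quasi-likelihood test, with an adjusted p under 0.05 over all 14715 tested genes, 32 of 77 members fell (41.6%), 1 rose (1.30%) and 44 did not pass. Of all tested genes, 9.59% fell, 9.02% rose and 18.6% changed in either direction. The log2 fold change, Myf5Cre-Pcyt2 over control, had a median of -0.30 over the members, equal to 81.5% of the control level, beside -0.00 over all tested genes. It was negative in 76 of 77 members with the TMM scaling used throughout and in 57 of 77 with library size alone, a scaling that moved the median of all genes up by 0.21. The members' quartiles were -0.40 and -0.20, and their range ran from -0.92 to 0.79. The median standard error was 0.11. An estimate of -0.5 or lower was found in 9 of 77 members, beside 1266 of all 14715 tested genes. At an unadjusted p under 0.05 there were 52 members, 51 of them lower, beside 5074 of all tested genes in either direction. Between the 5th and 95th percentile of the members' levels, a range that holds 6080 tested genes, 11.4% of genes fell and the median was -0.01.

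The count of members that fell depended on the scaling and on single libraries. With library size alone 6 members fell (7.79%, beside 3.39% of all genes lower in that fit). When replicate 2 or 3 of the Myf5Cre-Pcyt2 group was left out, 7 and 12 members fell. When control replicate 1, 2 or 3 was left out, 40, 15 and 16 fell. In each of these 6 settings 73 to 76 members lay below the median of all genes, and the members' median lay 0.21 to 0.37 below it. Xist and Y-linked counts showed that replicate 3 of each group was male and the other 4 libraries female. With a term for sex, an alternative chosen after seeing the data, 25 members fell.

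**Figure D1:**
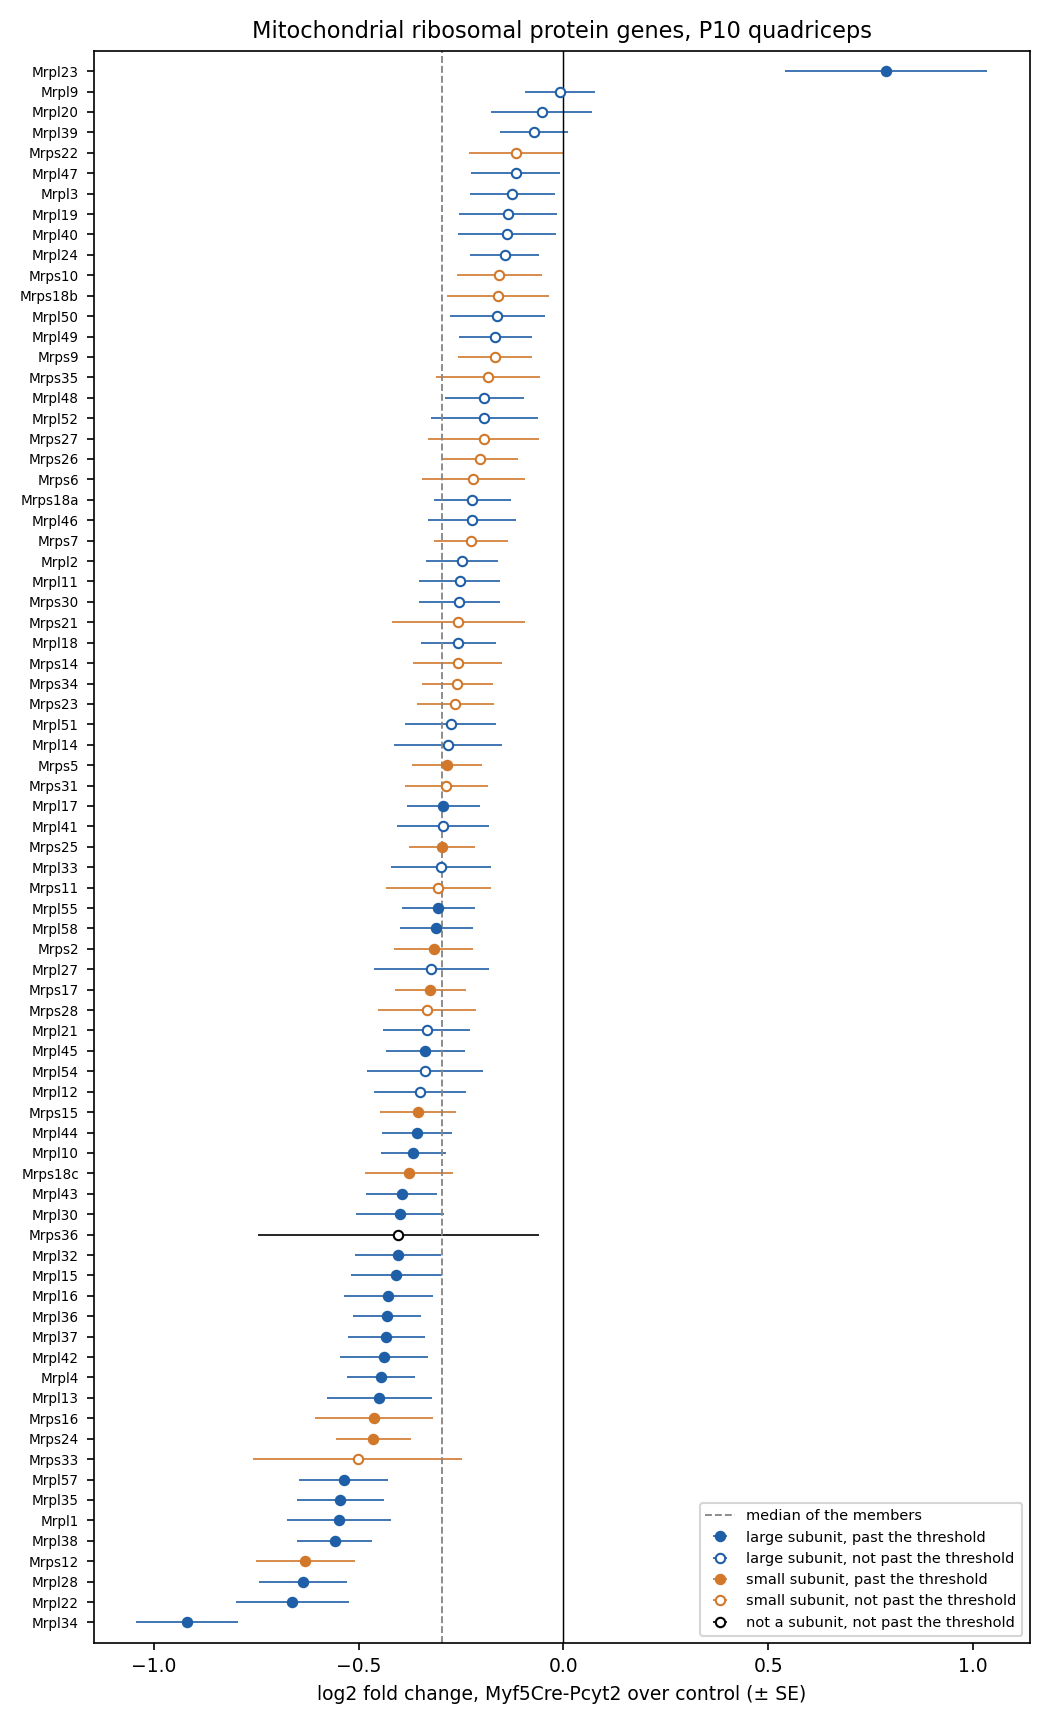
Log2 fold change (x axis, Myf5Cre-Pcyt2 over control, n = 3 libraries per group) of each of the 77 members (y axis), with bars for the standard error. Filled points passed an adjusted p of 0.05, the dashed line is the members' median of -0.30, and 76 of 77 points lie below 0 with TMM scaling (57 with library size alone).

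Summed over all members, the level in CPM (counts set against each library total after TMM scaling) was 3210, 3481 and 3852 in control replicates 1 to 3 and 3051, 2687.5 and 2769 in the Myf5Cre-Pcyt2 replicates. All 3 Myf5Cre-Pcyt2 libraries lay below all 3 controls, and Myf5Cre-Pcyt2 replicate 1 lay closest to them. The means were 3514 ± 322 and 2836 ± 191 CPM (SD, n = 3), so the group stood at 80.7% of control. As a share of all counts with no scaling factor, the sums were 0.310%, 0.297% and 0.374% in controls and 0.313%, 0.301% and 0.299% in Myf5Cre-Pcyt2 muscle. On that scale the groups overlapped, and only control replicate 3 stood above the rest. Fibre mRNAs, among the most abundant in muscle, were higher in controls. The 8 fibre markers (Acta1, Ckm, Des, Myh4, Tnnt3, Tnnc2, Mylpf and Mb) summed to 160760, 209690 and 154350 CPM in controls and 125660, 97104 and 110290 CPM in the others. Their part in the difference between the scalings was not tested. Leaving the 20 most abundant genes out of the fit gave 32 members lower, as before. That fit also used TMM scaling, so it cannot address the difference.

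**Figure D2:**
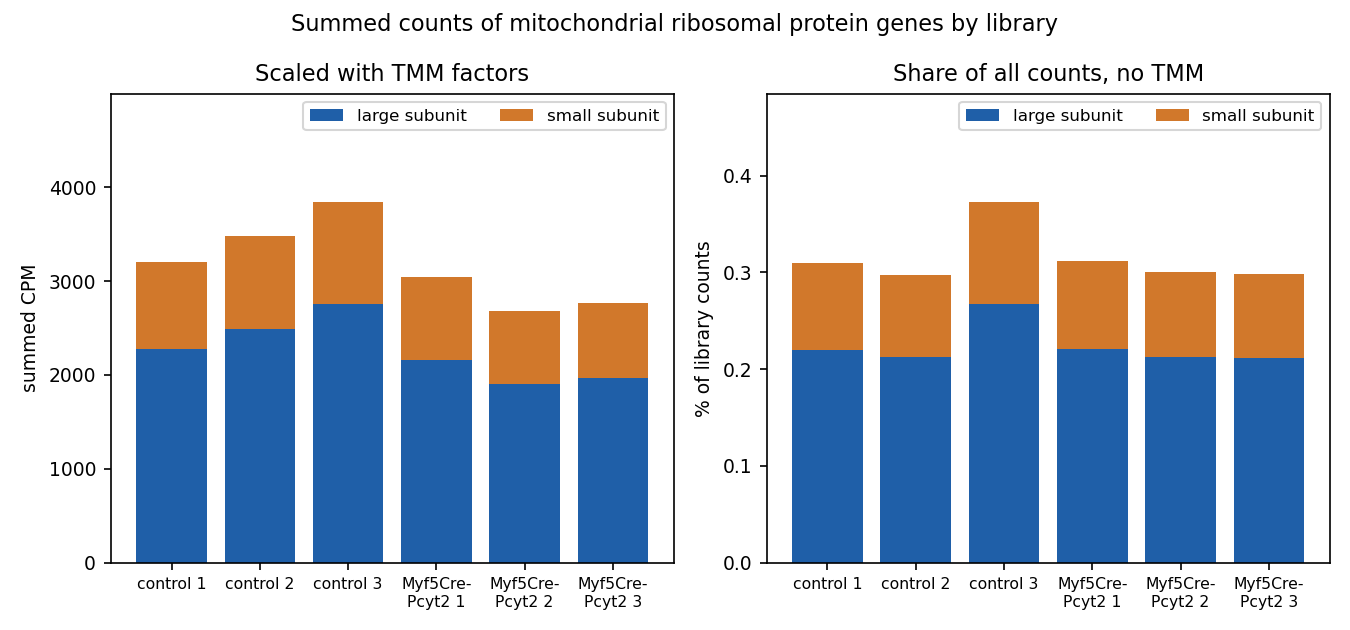
Summed counts of the 50 large-subunit (blue) and 26 small-subunit (orange) genes in each library, as TMM-scaled CPM (left) and as percent of all counts with no scaling factor (right). On the left the 3 Myf5Cre-Pcyt2 bars are lower than the 3 control bars, and on the right the groups overlap.

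With TMM scaling, on which all counts in this paragraph rest, the members moved together between libraries. Control replicate 3 was the highest of the 6 libraries for 62 of 77 members, Myf5Cre-Pcyt2 replicate 2 was the lowest for 45 and Myf5Cre-Pcyt2 replicate 3 for 25. Relative to the control mean, on the log2 scale, the median member stood at -0.125, -0.0167 and 0.132 in control replicates 1 to 3 and at -0.189, -0.365 and -0.33 in the Myf5Cre-Pcyt2 replicates. Myf5Cre-Pcyt2 replicate 1 was below all controls for 48 members, replicate 2 for 72 and replicate 3 for 68. Such counts for single libraries were not taken over all tested genes. With no scaling factor the members' summed shares overlapped between the groups, as given above. For 47 members (61.0%) the 3 Myf5Cre-Pcyt2 libraries were all below the 3 controls, and for 1 they were all above. Of all tested genes 19.2% were without overlap in the lower direction and 19.9% in the higher.

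Both subunits were lower to a like extent. In the large subunit, which joins amino acids into the chain, 23 of 50 genes fell, 1 rose and the median log2 fold change was -0.31. In the small subunit, which binds and decodes the mRNA, 9 of 26 fell, 0 rose (also 0 at an unadjusted p under 0.05 and by DESeq2) and the median was -0.27. Summed levels went from 2507 ± 237 to 2009 ± 135 CPM for the large subunit (80.1% of control) and from 1002 ± 84.4 to 823 ± 54.4 CPM for the small (82.2%). The ratio of large to small was 2.45, 2.53 and 2.51 in controls and 2.44, 2.42 and 2.46 in Myf5Cre-Pcyt2 muscle. Mrps30 and Mrps18a were counted with the large subunit, where their proteins sit, and Mrps36, whose protein belongs to the 2-oxoglutarate dehydrogenase complex, with neither. By descent, 22 of 45 members with a bacterial homologue fell (median -0.32), and 9 of 30 members specific to mitochondria fell (median -0.26). Within the large subunit the counts were 14 of 29 (median -0.33) and 8 of 20 (median -0.29), and within the small subunit 8 of 16 (median -0.31) and 1 of 10 (median -0.23). No difference between these classes was tested.

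Mrpl34 encodes a small large-subunit protein of bacterial descent, and its promoter letters are the first of those shown. The gene lies on the plus strand of chromosome 8, from 71464959 to 71465747 (GENCODE M21, GRCm38). Its level was 24.0, 24.4 and 24.6 CPM in controls and 15.6, 11 and 12.1 CPM in Myf5Cre-Pcyt2 muscle. The controls were within 1 CPM of each other and the groups were far from overlapping. The log2 fold change was -0.92 (SE 0.125, adjusted p = 0.00245), the lowest of all members, and it passed in all 14 alternatives.

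Among the proteins that line the exit tunnel for the new chain, Mrpl22 and Mrpl4 fell. Mrpl22 (chromosome 11, 58171661 to 58179565, plus strand) was at 14.8, 14.7 and 15 CPM in controls and at 11.4, 9.04 and 7.76 CPM in Myf5Cre-Pcyt2 muscle, for a fitted value of -0.66 on the log2 scale (SE 0.137, adjusted p = 0.0107). Mrpl4 was at 36.4, 41.0 and 39.7 CPM against 29.5, 28.2 and 28.2 CPM (log2 fold change -0.45, SE 0.083, adjusted p = 0.00697). In both genes every Myf5Cre-Pcyt2 library was below every control. Mrpl22 passed in 13 of 14 alternatives and missed the threshold without Myf5Cre-Pcyt2 replicate 2 (adjusted p 1.78e-05 to 0.0528 over the alternatives), and Mrpl4 missed it with library size alone (0.000879 to 0.095). Mrpl23, whose protein sits at the mouth of the same tunnel, is described further on.

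Mrpl28, Mrpl35, Mrpl36 and Mrpl57 encode further large-subunit proteins. Mrpl28 (chromosome 17, 26123500 to 26126613) was at 47.0, 51.2 and 56.8 CPM in controls and at 37.6, 32.1 and 30.0 CPM in the others (log2 fold change -0.64, SE 0.108, adjusted p = 0.00511). Mrpl35 was at 35.2, 43.7 and 41.2 CPM against 30.5, 25.5 and 26.4 CPM (-0.55, adjusted p = 0.00857). Mrpl57 was at 28.6, 25.9 and 31.8 CPM against 22.2, 19.3 and 18.1 CPM (-0.54, adjusted p = 0.00976). In these 3 genes no library of one group reached into the other, and the margin was widest in Mrpl28. Mrpl36, the counterpart of the smallest large-subunit protein of bacteria, was at 31.5, 35 and 34.6 CPM against 25.5, 24.7 and 24.9 CPM (-0.43, adjusted p = 0.00787). The Myf5Cre-Pcyt2 libraries of Mrpl36 were close to each other and below all controls. Mrpl28 and Mrpl35 passed in all 14 alternatives, as did Mrpl34, Mrpl38 and Mrps12. With library size alone Mrpl36 and Mrpl57 missed the threshold, and Mrpl57 also without Myf5Cre-Pcyt2 replicate 2.

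The small-subunit genes with the smallest p were Mrps12, whose protein guards the accuracy of decoding, and Mrps24, whose protein lies at the mRNA entry. Mrps12 (chromosome 7, 28739641 to 28741820, minus strand) was at 27.0, 32.9 and 25.4 CPM in controls and at 16.0, 19.1 and 20.1 CPM in Myf5Cre-Pcyt2 muscle. Its log2 fold change was -0.63 (SE 0.121, adjusted p = 0.008). Mrps24 was at 49.4, 47.0 and 51.3 CPM against 39.5, 33.1 and 34.7 CPM (-0.46, SE 0.092, adjusted p = 0.00889). Both genes were without overlap between groups. For Mrps24, which shares 226 exon bases with Urgcp on its own strand, the call was lost with library size alone and without Myf5Cre-Pcyt2 replicate 2.

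The other small-subunit genes named by rank fell less. Mrps15 had a log2 fold change of -0.36 (adjusted p = 0.0246), Mrps18c of -0.38 (adjusted p = 0.0353), Mrps17 of -0.32 (adjusted p = 0.027) and Mrps2 of -0.32 (adjusted p = 0.0452). Mrps25 stood at -0.30 (adjusted p = 0.0298) and Mrps5 at -0.28 (adjusted p = 0.0432). In all 6 the Myf5Cre-Pcyt2 libraries were below the controls. Each lost its call with library size alone and with a replicate block. Each also lost it with replicate 2 or 3 of either group left out. Mrps2, Mrps5 and Mrps25 also lost it with the term for sex, and Mrps5 and Mrps25 with DESeq2's test, with no filter on low counts and without Myf5Cre-Pcyt2 replicate 1, so that these 2 passed in 4 of 14 alternatives. Mrps25 shares 69.8% of its exon bases with Nr2c2 on the other strand, and since the strand setting of the counting is not given, the reads of the 2 genes cannot be told apart. The remaining members that fell were Mrpl1, Mrpl10, Mrpl13, Mrpl15, Mrpl16, Mrpl17, Mrpl30, Mrpl32, Mrpl37, Mrpl43, Mrpl44, Mrpl45, Mrpl55 and Mrps16, beside Mrpl38, Mrpl42 and Mrpl58, which are described with the targeted loci.

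**Figure D3:**
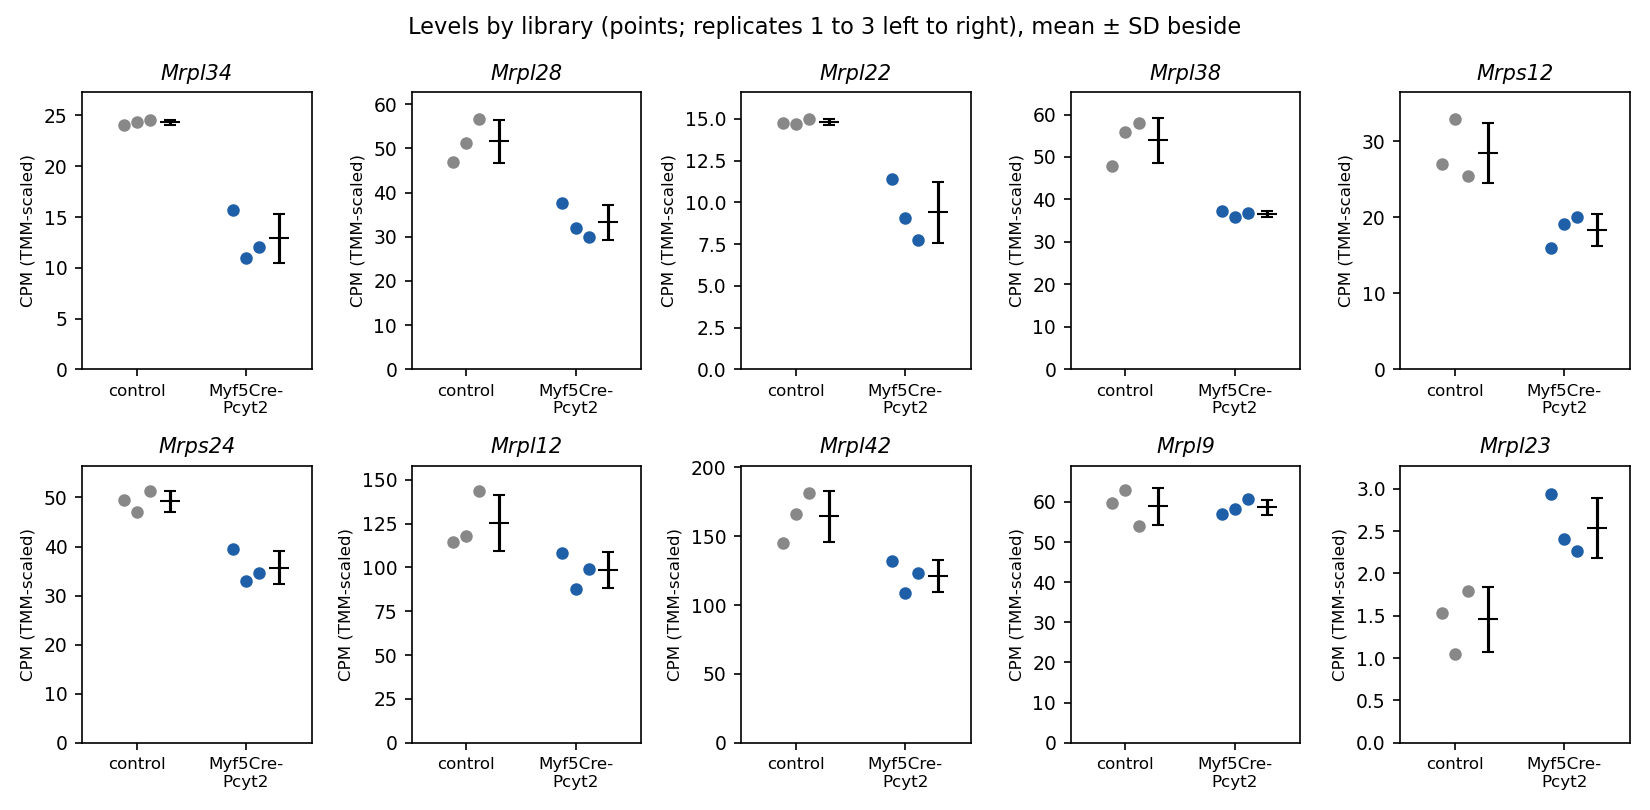
TMM-scaled CPM (y axes, from 0) of 10 named members in each library, with points for replicates 1 to 3 from left to right and bars for mean ± SD (n = 3). The groups do not overlap in any panel but that of Mrpl9, and Mrpl23 is the only panel in which the Myf5Cre-Pcyt2 points are the higher ones.

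Some members did not move measurably. Mrpl9 was at 59.8, 63.0 and 54.0 CPM in controls and at 57.0, 58.2 and 60.7 CPM in Myf5Cre-Pcyt2 muscle (log2 fold change -0.01, SE 0.085, adjusted p = 0.961). Mrpl20, needed early in large-subunit assembly, stood at -0.05 (adjusted p = 0.797), and Mrpl39, related in sequence to a tRNA synthetase, at -0.07 (adjusted p = 0.572). The groups overlapped in all 3, and the standard errors of 0.085, 0.124 and 0.083 leave room for small changes either way. With library size alone these 3 values turned positive.

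Mrpl23 was the only member that rose, from a level far below the rest. It was at 1.54, 1.04 and 1.80 CPM in controls (29, 18 and 31 counts) and at 2.94, 2.40 and 2.26 CPM in Myf5Cre-Pcyt2 muscle (55, 55 and 49 counts). The groups did not overlap. Its log2 fold change was 0.79 (SE 0.247, adjusted p = 0.048), close to the threshold, and the call was lost in 8 of 14 alternatives. Over all 14, adjusted p ran from 0.0216 to 0.148. The losses were with DESeq2's test, a replicate block, the term for sex, and without control replicate 1, control replicate 2 or any 1 Myf5Cre-Pcyt2 replicate. The processed pseudogene Mrpl23-ps1 had 22 summed counts, and reads that match both were assigned in a way not given in the sources used here. The gene model runs from 142532686 to 142540747 on chromosome 7, so the promoter letters printed for Mrpl23, taken from the RefSeq start, lie within that model.

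Levels can be compared between members per length of annotated exon (RPKM from TMM-scaled CPM). In controls the highest was Mrpl12, at 81.8 ± 10.4 RPKM (SD, n = 3), followed by Mrps28 at 73.0 ± 7.21, Mrpl2 at 68.5 ± 6.0 and Mrps21 at 55.2 ± 3.33. Mrpl12 encodes the mobile stalk to which translation factors bind, and Mrpl2 a protein at the peptidyl transferase centre. The spreads of Mrpl12, Mrps28 and Mrpl2 overlapped, so their order is not settled by these libraries. Mrps21 was not clearly apart from the members just below it, so its place is not settled either. The median member was at 15.4 RPKM. At the low end were Mrps36 at 4.07 ± 1.16, Mrps10 at 3.16 ± 0.195, Mrps33 at 3.01 ± 0.770 and Mrpl23 at 0.299 ± 0.0781 RPKM, and only Mrpl23 was clearly apart from its neighbours. Mrps36 has processed pseudogenes (Mrps36-ps1, Mrps36-ps2 and Mrps36-ps3), which had 4, 2 and 0 summed counts. How reads that match both were assigned is not known. Mrps10 was at 25.5 CPM in controls, over 8079 exon bases. Of the 8 members named here Mrpl23 alone passed the test. The log2 fold changes were -0.35 for Mrpl12 (adjusted p = 0.0534), -0.33 for Mrps28 (0.0763), -0.25 for Mrpl2 (0.0732) and -0.26 for Mrps21 (0.288). They were -0.16 for Mrps10 (0.309), -0.50 for Mrps33 (0.186) and -0.40 for Mrps36 (0.436). Mrpl12 was at 114, 118 and 144 CPM in controls and at 108, 87.8 and 99.1 CPM in Myf5Cre-Pcyt2 muscle, with no overlap, and passed in 5 of 14 alternatives, among them DESeq2's test (adjusted p 0.00959 to 0.384). Over the 77 members, the log2 fold change had a Spearman rho of -0.216 with the level per length and of 0.223 with exon length, a description over genes that share the same 6 libraries. With the members split into 3 classes by mean CPM, 10 of 26, 11 of 25 and 11 of 26 fell, from the lowest class to the highest.

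Members within 20 Mb of Pcyt2 or Myf5 were set apart. Alleles linked to a Cre at Myf5 cannot be told apart from the genotype. Both groups carried the floxed Pcyt2 alleles, so this does not hold in the same way for alleles linked to Pcyt2. Pcyt2 itself, on chromosome 11, had 353, 277 and 277 counts in controls and 280, 328 and 272 in Myf5Cre-Pcyt2 muscle, and missed the threshold, at -0.28 on the log2 scale (SE 0.109, adjusted p = 0.0944). A count over the whole gene does not show which exons are missing, and in whole muscle fewer cells of a type and less RNA per cell cannot be told apart. Myf5 stood at 0.13 (adjusted p = 0.633). The members near Pcyt2 were Mrpl12 at 0.125 Mb, Mrpl38 at 4.48 Mb, Mrps7 at 5.01 Mb and Mrpl58 at 5.21 Mb. Mrpl38, a mitochondria-specific protein of the large subunit, was at 47.9, 55.9 and 58.0 CPM in controls and at 37.3, 35.9 and 36.7 CPM in the others (log2 fold change -0.56, SE 0.092, adjusted p = 0.00462). Its Myf5Cre-Pcyt2 libraries were nearly alike and all below the controls. Mrpl58, which encodes a peptidyl-tRNA hydrolase built into the ribosome, fell by 0.31 on the log2 scale (adjusted p = 0.0352), and the call was lost in 8 of 14 alternatives. Mrps7, a protein of the small subunit's head, did not pass (-0.23, adjusted p = 0.104). Near Myf5, at 12 Mb, Mrpl42 was at 145, 166 and 182 CPM against 132, 109 and 123 CPM (-0.44, adjusted p = 0.0202), with no overlap. Its call was lost with library size alone and without control replicate 2, Myf5Cre-Pcyt2 replicate 2 or Myf5Cre-Pcyt2 replicate 3. Of the 72 members farther away, 29 fell and the median was -0.29.

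Exons shared with another gene bear on the counts, since strand is not given. Of the 53 members that share under 5% of their exon bases with another gene, 26 fell, at a median of -0.31. Of the 24 that share more, 6 fell, at a median of -0.26. Mrpl53, the gene below the count minimum, shares 695 exon bases with Gm42688 on its own strand, and the assignment of reads in such bases is likewise unknown.

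Many members start close to a gene that runs the other way. Of the 77, 33 (42.9%) had such a partner with its start within 1000 bp, beside 15.4% of 13216 tested protein-coding genes. Of the 27 tested partners that are not themselves members, 7 fell, 2 rose and 18 did not pass, with a median of -0.11. Of the members they face 11 fell. Of all tested genes 9.59% fell and 9.02% rose. In 4 pairs both genes fell. These were Mrpl36 with Ndufs6, a complex I subunit (-0.43 and -0.56), Mrps12 with Sars2, the mitochondrial seryl-tRNA synthetase (-0.63 and -0.34), Mrpl37 with Cyb5rl (-0.43 and -0.47) and Mrps5 with Zfp661 (-0.28 and -0.66). In 1 pair both genes passed in opposite directions, Mrpl13 at -0.45 and Mtbp at 0.77. Of the 27 partners, 20 had a negative value and 7 a positive one. Mrpl13 shares 330 exon bases with Mtbp, and its groups overlapped. These pairs were named after their values were seen.

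Proteins and RNAs that work with the ribosome were also lower where they passed, in shares that differed between lists. The share of all tested genes to set beside each count is 9.59% lower and 9.02% higher. Of the 5 subunits with other symbols, Chchd1 (-0.56, adjusted p = 0.0226) and Dap3 (-0.32, adjusted p = 0.0373) fell, at a median of -0.32. Of 29 assembly factors 5 fell and 0 rose (median -0.24), among them the GTPases Noa1 (-0.51, adjusted p = 0.00802) and Mtg1 (-0.51, adjusted p = 0.00869) and the rRNA methyltransferase Nsun4 (-0.52, adjusted p = 0.0158). Of 20 translation factors 7 fell and 0 rose (median -0.29). Taco1, the activator of cytochrome oxidase subunit translation, was at 39.9, 53.1 and 46.1 CPM in controls and at 25.2, 21.6 and 27.1 CPM in Myf5Cre-Pcyt2 muscle (-0.91, SE 0.121, adjusted p = 0.00233). That is about the change of Mrpl34, with no overlap between groups. Gatb, a subunit of the amidotransferase that makes glutaminyl-tRNA, stood at -0.62 (adjusted p = 0.00507), and Gfm2, a recycling factor, at -0.52 (adjusted p = 0.0185). Of 17 mitochondrial tRNA synthetases 4 fell and 0 rose (median -0.15, and 0.06 with library size alone), among them Fars2 at -0.46 (adjusted p = 0.00736) and Tars2 at -0.38 (adjusted p = 0.0193). With library size alone the counts of genes lower in these 4 lists were 0, 0, 2 and 0. With single libraries left out they were 0 to 3, 2 to 6, 2 to 9 and 1 to 5, and without Myf5Cre-Pcyt2 replicate 2 they stood at the low end in all 4 lists. The same low end was reached without Myf5Cre-Pcyt2 replicate 3 in all but the assembly factors, without control replicate 3 in the subunits with other symbols and without control replicate 2 in the translation factors. Over the 269 tested genes of all 11 companion lists, edgeR and DESeq2 called 0 higher, and 3 were higher at an unadjusted p under 0.05 in edgeR.

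The ribosome's own RNAs fell as well. The small-subunit rRNA mt-Rnr1 was at 57.6, 81.0 and 74.4 CPM in controls and at 34.4, 34.9 and 34.1 CPM in Myf5Cre-Pcyt2 muscle (-1.04, SE 0.118, adjusted p = 0.00142). The large-subunit rRNA mt-Rnr2 was at 166, 183 and 196 CPM against 152, 93.4 and 131 CPM (-0.54, SE 0.153, adjusted p = 0.0349). The groups were apart in both, widely so in mt-Rnr1, and mt-Rnr2 missed the threshold with library size alone and without control replicate 2 or 3 or Myf5Cre-Pcyt2 replicate 2 or 3. The labels do not say whether rRNA was removed or polyadenylated RNA selected, and these counts may cover only part of the rRNA. Of the 13 mitochondrially encoded mRNAs, which this ribosome translates, 6 (mt-Nd3, mt-Nd4l, mt-Co2, mt-Co3, mt-Atp6 and mt-Atp8) had 0 to 2 counts summed over all libraries. Since mt-Co1 was at 907, 1005 and 1102 CPM in the same controls, the table did not capture these 6, and nothing is read from them. Of the 7 tested, 5 fell and 0 rose (median -0.49), with mt-Nd5 at -0.52, mt-Nd4 at -0.49 and mt-Nd2 at -0.61 (adjusted p = 0.0159, 0.0201 and 0.0225). The 5 became 2 with library size alone and 0 to 5 with single libraries left out, with 0 without Myf5Cre-Pcyt2 replicate 2. Of 17 genes of mitochondrial DNA transcription and maintenance 3 fell and 0 rose (median -0.17, and 0.05 with library size alone), led by Mterf2 (-0.76, adjusted p = 0.00489), Top1mt (-0.47, adjusted p = 0.0158) and Tfb2m (-0.57, adjusted p = 0.0192). The count was 1 with library size alone, 1 without replicate 2 of either group and at most 4 with another library left out.

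Most complexes of oxidative phosphorylation take up products of mitochondrial translation, though complex II (Sdha to Sdhd), also in this list, does not. The nuclear genes of these complexes were lower in 52 of 77 tested, with 0 higher and a median of -0.43. Of the ribosomal protein genes 32 of 77 were lower, with a median of -0.30. The difference between the lists was not tested. Cox6a2 (-0.71, adjusted p = 0.00341), Ndufs6 (-0.56, adjusted p = 0.00414) and Uqcrc1 (-0.66, adjusted p = 0.00492) had the smallest p. The 52 became 18 with library size alone and 14 without Myf5Cre-Pcyt2 replicate 2. Of 70 cytosolic ribosomal protein genes, the counterpart of the family outside mitochondria, 4 fell and 0 rose (median -0.15, and 0.05 with library size alone). That share lower is under the 9.59% of all tested genes. Rpl37 (-0.58, adjusted p = 0.012) and Rps28 (-0.42, adjusted p = 0.0374) were among the 4, and many pseudogene copies make these counts uncertain. Leaving out replicate 2 of either group made the count 1, leaving out replicate 1 of the Myf5Cre-Pcyt2 group made it 9, and it was 14 with no filter on low counts. Of 15 genes chosen to follow mitochondrial content, such as outer and inner membrane proteins, Immt (-0.38, adjusted p = 0.0318) and Cs, citrate synthase (-0.37, adjusted p = 0.0422), fell. The median was -0.17 (0.04 with library size alone). The count lower was 0 without replicate 2 of either group and at most 3 with another library left out. Of 10 regulators of mitochondrial biogenesis only Esrra, a nuclear receptor (-0.36, adjusted p = 0.0163), fell, at a list median of 0.04. With library size alone Esrra missed the threshold, as it did when replicate 2 of either group was left out. The share lower among these regulators and in the mitochondrial content list was near that of all tested genes (9.59%).

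**Figure D4:**
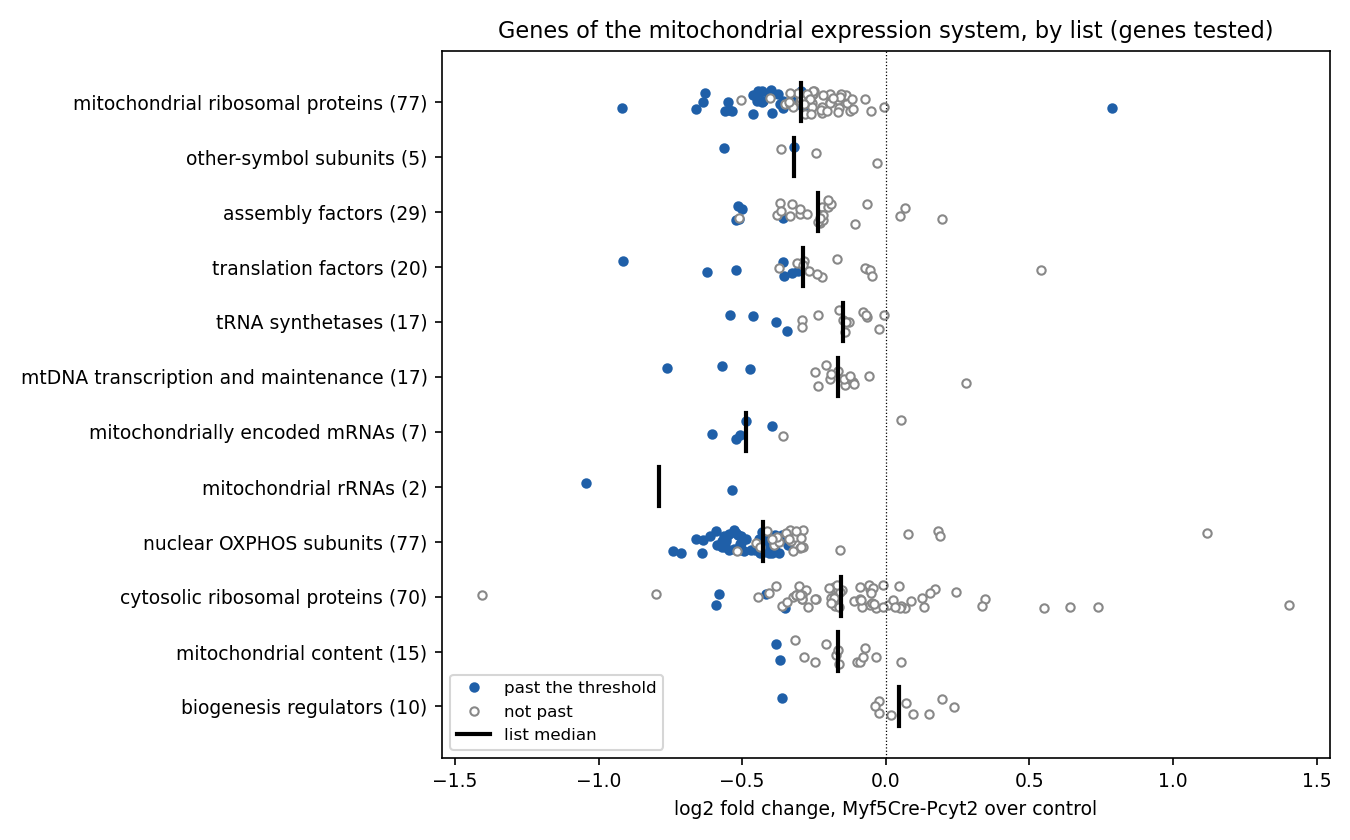
Log2 fold change (x axis) of every tested gene in the 12 lists (rows, with the number tested), filled where the adjusted p was under 0.05, with bars for list medians. The mitochondrial ribosomal proteins have a median of -0.30 and the nuclear OXPHOS subunits of -0.43, and the medians of the tRNA synthetases, mitochondrial DNA transcription, cytosolic ribosomal proteins and mitochondrial content turn positive with library size alone.

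Markers of some cell types moved with the groups, and those of others did not. The counts below stand beside 9.59% of all tested genes lower and 9.02% higher. Of 8 fibre markers 4 fell (Mb, Ckm, Mylpf and Tnnt3) and all 8 were detected in every library. Of 5 satellite cell markers 3 rose, with summed levels of 89.0 to 92.8 CPM in controls and 110 to 119 CPM in Myf5Cre-Pcyt2 muscle. Of 5 Schwann cell markers 4 rose, with sums of 304 to 369 CPM and 448 to 627 CPM. Of 5 fibroblast markers 1 rose (8372 to 10904 and 11517 to 13130 CPM). Of 5 endothelial markers 1 fell (604 to 756 and 640 to 726 CPM), and of 5 smooth muscle or pericyte markers 1 fell (1428 to 1727 and 1047 to 1255 CPM). Macrophage and adipocyte markers gave 0 of 5 in either direction, 1 of 4 tested erythroid markers and 1 of 2 tested cardiac markers rose, and neutrophil and lymphocyte markers were at most at 1.89 CPM summed. The part of these shifts in the members' levels was not tested.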

How the data were processed

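Counts per Ensembl gene were deposited by the authors. Per the submitters' processing notes the genome was GRCm38 (mm10) and the tools were featureCounts (Subread 1.6.2), Bowtie2 2.3.4.1 and Trim Galore 0.5.0, with no role or order stated. Annotation release, strand setting and the counting of multiply mapped reads were not given in the sources used here. Symbols, positions and exon lengths were taken from GENCODE M21, which held 54495 of the 54532 gene IDs. Library totals were 17775898 to 20446920 counts, 1.3 µg of RNA went into each library, and 26363 genes had 0 counts throughout. No pair of libraries was a copy of another.

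Genes were filtered with filterByExpr (14715 kept), scaled with TMM and compared with edgeR 4.0.16's quasi-likelihood test in R 4.3.3, two-sided, group as the only term, all 6 libraries, with Benjamini-Hochberg adjustment over all tested genes and a threshold of 0.05. The biological coefficient of variation was 11.6%. The procedure was tested on simulated counts. Whether the pups were littermates is unknown, p-values measure only the spread among these 6 libraries, which may be technical in part, and totals limit counting error only. Alternatives were DESeq2 1.42.0, its size factors, library size alone, no low-count filter, at least 1 CPM in 3 libraries, a replicate block, leaving out the 20 most abundant genes or each library, and, added after seeing the data, a term for sex.

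The members, the companion lists, the marker lists and the roles were chosen with earlier results of these data known. Named were the 8 members of each subunit with the smallest p among those past the threshold, the 4 largest falls and rises, every riser, members within 20 Mb of Pcyt2 or Myf5, the 4 highest and 4 lowest levels per length, those beside the count minimum, and up to 3 genes per companion list with the smallest p, of which 2 are not reported here. Promoter windows are from RefSeq (GRCm38.p6).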

Additional observations from a re-analysis of the deposited data

How the results depend on the processing

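Members lower (32) became 6 with library size alone and 7 to 40 with single libraries left out. Of these, 26 to 30 of the original genes remained without control replicate 1 or Myf5Cre-Pcyt2 replicate 1, and every gene called in the other 4 of these fits was among the 32. DESeq2's size factors gave 34, DESeq2's test 31, no filter 36, the 1 CPM filter 33 and the term for sex 25. Members higher (1) became 0 with DESeq2's test, with the term for sex and without each library but control replicate 3 (0 to 1). At an unadjusted p under 0.05, 1 member was higher in edgeR, in DESeq2 and under the block. The median log2 fold change of -0.30 moved to -0.0905 with library size alone and ran from -0.36 to -0.21 with single libraries left out. The summed level, 80.7% of control, moved to 93.1% with library size alone and ran from 77.4% to 84.6% with single libraries left out. Library size alone also changed the balance of all calls, of which 86.6% were then higher, against 48.5% with TMM.

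A replicate block gave 15 members lower and 0 higher. Libraries with the same replicate number did not deviate together (correlations of -0.111, -0.174 and 0.0182 for numbers 1 to 3), so the numbers were not taken to pair animals. Under the block the translation factors lower were 3 instead of 7, the mitochondrially encoded mRNAs 1 instead of 5 and the nuclear OXPHOS genes 31 instead of 52.

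With library size alone 19 of the 76 negative members turned positive, none above 0.21 on the log2 scale. Of the named members, Mrpl39 was at 0.13, Mrpl20 at 0.15, Mrpl9 at 0.21 and Mrps10 at 0.0485, and list medians at 0.0639 (tRNA synthetases), 0.0458 (mitochondrial DNA transcription), 0.0504 (cytosolic ribosomal proteins) and 0.0425 (mitochondrial content). With single libraries left out Mrpl20 ran from -0.166 to 0.0712, with 0.0712 without control replicate 3 and 0.0114 without Myf5Cre-Pcyt2 replicate 2. Mrpl9 ran from -0.0681 to 0.0447, with 0.00409, 0.0447 and 0.0106 without control replicate 1, control replicate 2 and Myf5Cre-Pcyt2 replicate 1. The cause of these changes was not tested. With 3 libraries per group and a median standard error of 0.11, changes well under that of the median member could not be called.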

Other observations

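Mrpl23, the only member that rose, lies on chromosome 7 between genes of fast muscle fibres and the imprinted H19 and Igf2 genes. Its neighbours were looked at after its values were seen. Of the 12 other tested genes within 200 kb, 6 were lower in Myf5Cre-Pcyt2 muscle and 4 higher by edgeR's adjusted p. Of all tested genes 9.59% were lower and 9.02% higher. The 4 are not separate loci, since Gm27483 and Gm27786 lie within H19, and Igf2os overlaps Igf2. Nor are the 6 all separate, since the span of Prr33 overlaps those of Lsp1 and Tnnt3, and the strand setting is not given. On one side, 16.7 kb away, Tnnt3, which encodes fast troponin T, was at -0.65 on the log2 scale (adjusted p = 0.0337), and Tnni2, fast troponin I, at 88.3 kb, was at -0.60 (adjusted p = 0.025). On the other side, 3.9 kb away, Nctc1, a noncoding transcript, was at -0.65 (adjusted p = 0.0398). Beyond it, at 110.0 kb, Igf2, a growth factor gene, was at 0.69 (adjusted p = 0.0231). H19, at 34.8 kb, was at 16962 CPM in controls and 24960 CPM in Myf5Cre-Pcyt2 muscle and missed the threshold (0.56, adjusted p = 0.06).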
